A study of Mus musculus with 8 samples.

Results

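The solute carriers are the membrane proteins that move sugars, amino acids, ions, vitamins and nucleotides across the cell surface and across organelle membranes. Members were all probe sets whose single gene symbol in the array annotation is Slc followed by a digit. They came to 185 of the 12422 probe sets on the array and stood for 151 genes in 40 numbered families. On this array 1 transcript is read by several short probes, scored together as a probe set. The products of 3 member genes are not carriers: Slc9a3r1 and Slc9a3r2 are scaffold proteins that bind a sodium-proton exchanger, and Slc4a1ap was named for binding an anion exchanger.

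Testis RNA from house mice was hybridised to Affymetrix arrays in 4 groups of 2, named here by the word that follows Mus musculus in each label: musculus, domesticus, castaneus and ssp. Both arrays of each group are labelled as technical replicates, and the labels give no strain, age, treatment or number of animals, and what ssp stands for is not stated. Each p-value therefore measures the spread between arrays of the same kind of RNA, not between animals. Values are the authors' deposited intensities, a brightness scale on which every array had been brought to a common mean, and their number limits the precision of every statement.

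In the testis, developing sperm cells are fed through Sertoli cells, which take up glucose and pass lactate on to them. Spermatids and sperm use glucose, fructose, lactate and carnitine-bound fatty acids as fuels, each of which enters the cell or its mitochondria through a solute carrier. Amino acid exchangers, zinc transporters and mitochondrial carriers serve the growth and remodelling of the same cells. Because the RNA came from whole tissue, fewer cells of a type and less RNA per cell cannot be told apart. Nor can a group difference in transcript level be told apart from a group difference in sequence under the short probes.

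Of the 185 probe sets, 122 were tested, standing for 112 genes. Testing required a value at the 40th percentile of the array or above on 2 or more of the 8 arrays. That was 65.9% of the solute carrier probe sets, against 71.4% of all probe sets. The 63 that were not tested had means over the 8 arrays of 18.7 to 79.2, the lower value being the floor to which dimmer values were raised, and 39 genes had no tested probe set. Solute carriers were dimmer than the array as a whole, with a median at percentile 46.6 and 12 probe sets, or 6.49%, in the brightest 10%. A probe set's brightness also depends on its probes, so the order of brightness below is not an order of transcript abundance.

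The brightest solute carriers of these testes carried glutathione into mitochondria, glucose, zinc, monocarboxylates and large neutral amino acids. Slc25a39, which imports glutathione into mitochondria, read 13325 and 11500 in domesticus, against 12179 and 11055 in castaneus, 8250 and 5657 in musculus and 10713 and 7716 in ssp. The domesticus and castaneus arrays were all brighter than the musculus and ssp arrays, by a 1.81-fold span between domesticus and musculus that did not pass limma's test (adjusted p = 0.413). Limma tests each probe set with a spread shared across the array, here by a moderated F test among the 4 groups.

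The 300 bases around the Slc25a39 transcription start are shown because this is the brightest member. The sequences of the 2 members that differed between a pair of groups and have a promoter in the RefSeq table, Slc25a10 and Slc46a1, are set beside it. Each runs from 250 bases before to 50 bases after the start, in build GRCm38.p6, and was read from the reference strain, not from these mice. Capitals mark matches on either strand to the GC box GGGCGG, the TATA box TATAAA and the core of the cyclic AMP element TGACGT, and all capitals shown are GC boxes. Slc25a39 lies on the minus strand of chromosome 11 (chr11:102407468-102407767), Slc25a10 on the plus strand (chr11:120491587-120491886) and Slc46a1 on the plus strand (chr11:78465451-78465750).
Slc25a39: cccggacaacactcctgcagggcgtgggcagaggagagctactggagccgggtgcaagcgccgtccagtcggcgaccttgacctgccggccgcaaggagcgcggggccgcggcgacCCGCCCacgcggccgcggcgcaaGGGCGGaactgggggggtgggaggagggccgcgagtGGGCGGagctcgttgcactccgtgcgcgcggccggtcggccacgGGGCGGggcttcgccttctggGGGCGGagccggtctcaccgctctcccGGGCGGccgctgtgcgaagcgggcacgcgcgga
Slc25a10: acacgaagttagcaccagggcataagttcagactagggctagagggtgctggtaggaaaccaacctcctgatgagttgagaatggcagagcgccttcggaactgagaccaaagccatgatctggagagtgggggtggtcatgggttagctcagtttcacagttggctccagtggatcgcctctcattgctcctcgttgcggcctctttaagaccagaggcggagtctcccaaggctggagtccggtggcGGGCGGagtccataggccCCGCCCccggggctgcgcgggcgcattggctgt
Slc46a1: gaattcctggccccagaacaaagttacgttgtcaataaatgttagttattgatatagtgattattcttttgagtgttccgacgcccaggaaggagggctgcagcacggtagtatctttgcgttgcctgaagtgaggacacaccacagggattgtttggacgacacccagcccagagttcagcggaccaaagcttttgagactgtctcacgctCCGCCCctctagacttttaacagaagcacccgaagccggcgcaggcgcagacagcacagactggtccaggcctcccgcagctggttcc
The window of Slc25a39 held 6 GC boxes, that of Slc25a10 held 2 and that of Slc46a1 held 1, and none of the 3 held the TATA box or the cyclic AMP core. At least 1 GC box stood in 61.7% of the 175 promoters of member genes and in 35.7% of all 32851 promoters of that length. The latter were not limited to genes on the array, so these shares do not compare like with like. The TATA box stood in 7.43% and 13.6% and the cyclic AMP core in 9.71% and 7.51%. Of the 151 genes, 124 had a promoter in the table.

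Sugar transporters held 3 of the 12 probe sets in the brightest 10%. Slc2a3, a high-affinity glucose transporter, read 8178 and 6282 in castaneus, against 6527 and 5344 in domesticus, 6867 and 5128 in musculus and 7639 and 5447 in ssp. All 4 groups overlapped, and replicate 1 was the brighter array in every group. Its second probe set also overlapped in all groups, at 1061 to 3884, with both extremes in ssp. Slc2a5, the fructose transporter, averaged 2541 ± 0.27 in musculus and 2259 ± 0.84 in castaneus (geometric mean, SD in log2 units, n = 2 arrays), less than the spread between replicate arrays. Slc2a1, the glucose transporter of many dividing cells, was dim and not tested, at 28.4 to 73.0.

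Slc2a8, an intracellular hexose transporter that is abundant in testis, had the widest span of the 20 brightest genes. It read 2161 and 1433 in domesticus, against 1832 and 1246 in musculus, 648 and 535 in castaneus and 748 and 381 in ssp. The domesticus and musculus arrays were all brighter than the castaneus and ssp arrays. The 3.30-fold span between domesticus and ssp did not pass (adjusted p = 0.166, unadjusted p = 0.0111). A second, dim probe set of Slc2a8 also had its highest group mean in domesticus, at 40.9, and was not tested.

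Among monocarboxylate carriers, Slc16a7, the lactate and pyruvate transporter found in the sperm tail, was even across all groups. It read 2956 and 3643 in domesticus, against 3006 and 3518 in castaneus, 2671 and 3640 in musculus and 2964 and 3200 in ssp, a 1.07-fold span. All groups overlapped. Slc16a1, the widespread lactate transporter, was not tested, at 16.6 to 101.8. Slc16a8, a lactate carrier known from retinal pigment epithelium, averaged 127 over the 8 arrays.

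Slc7a5 and Slc3a2 encode the light and heavy chains of one exchanger of large neutral amino acids, and both were among the 20 brightest genes. Slc7a5 read 4105 and 4267 in musculus, against 3816 and 3139 in domesticus, 2598 and 2610 in castaneus and 2067 and 2695 in ssp. Both musculus arrays lay above the other 6, and the 1.77-fold span did not pass (adjusted p = 0.325). Slc3a2 read 3363 and 3547 in castaneus, against 3292 and 3589 in musculus, 2678 and 2184 in domesticus and 2548 and 2542 in ssp. The castaneus and musculus arrays lay above the domesticus and ssp arrays, by a span of 1.43-fold that did not pass either (adjusted p = 0.463). The light chain was thus dimmer in castaneus and ssp and the heavy chain in domesticus and ssp, with neither past the threshold. Slc38a10, of a sodium-coupled amino acid transporter family, read 1512 and 1291 in musculus, against 1204 and 929 in castaneus, 1134 and 1132 in domesticus and 679 and 596 in ssp. Both ssp arrays lay below the other 6 (adjusted p = 0.210). A dim second probe set of Slc38a10 had its highest group mean in ssp, where it read 62.0 and 54.1, overlapped by 1 musculus array, and was not tested.

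Zinc transporters held 1 probe set in the brightest 10%. Slc30a3, which loads zinc into synaptic vesicles in the brain, read 6677 and 6112 in domesticus, against 5880 and 6389 in musculus, 6083 and 5370 in castaneus and 4828 and 3928 in ssp. Both ssp arrays lay below the other 6, by a 1.47-fold span that did not pass (adjusted p = 0.542). Its second probe set was at the floor on 6 of 8 arrays and was not tested. Slc39a6, a zinc importer of the cell surface, averaged 1372.

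The other genes among the 20 brightest had spans of 1.13 to 1.54-fold. They were Slc35g3 and Slc35b1 of the nucleotide sugar transporter family, Slc29a1, which equilibrates nucleosides, Slc66a2, Slc4a2, an anion exchanger needed for sperm formation in mice, and Slc22a21, a carnitine transporter. The mitochondrial carriers Slc25a1 for citrate, Slc25a28 for iron, Slc25a20 for carnitine esters and Slc25a4 for ADP and ATP complete the list. None of the 20 differed among groups, with adjusted p of 0.166 to 0.996, and 18 of them had a span under 1 on the log2 scale. The plot of the 20 brightest genes shows arrays of different groups interleaved in most rows.

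**Figure D1:**
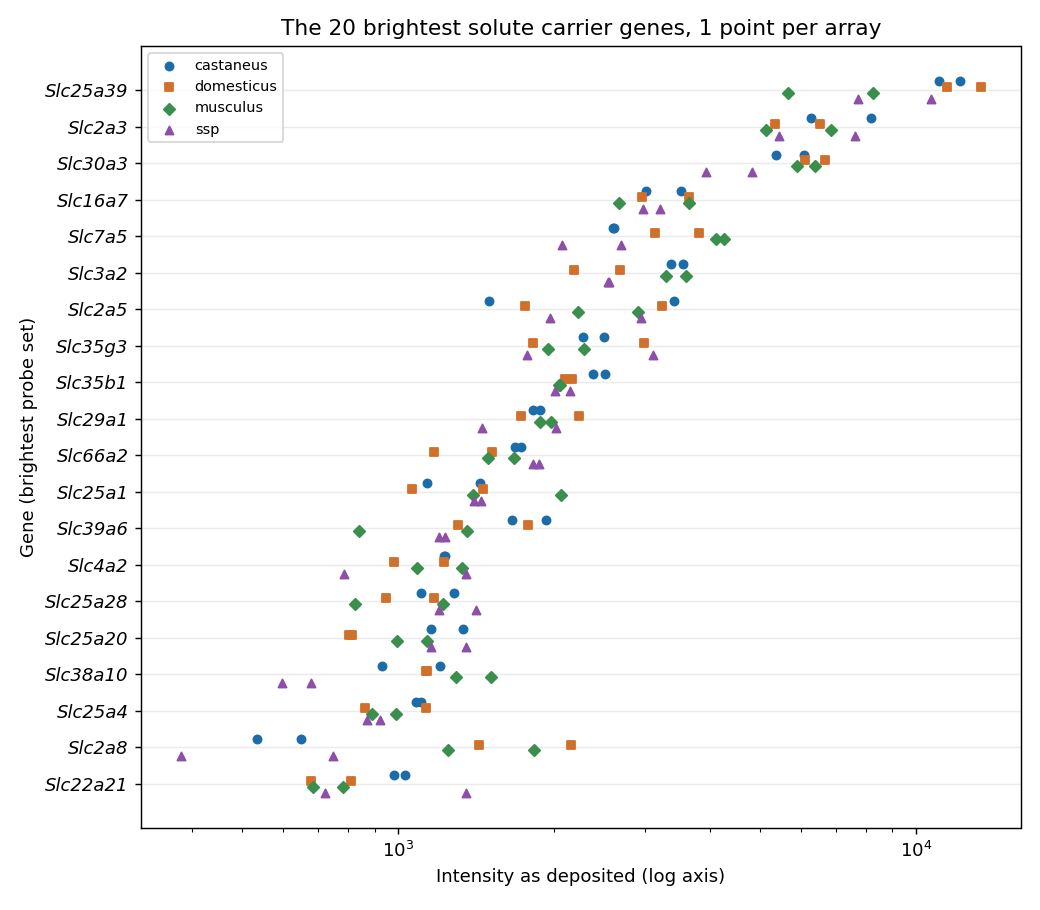
Deposited intensity (log axis) of the brightest probe set of each of the 20 brightest solute carrier genes, 1 point per array, 2 arrays per group. Slc2a8 and Slc38a10 are the 2 genes with a span of at least 1 on the log2 scale.

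By cargo, amino acid transporters were the largest class with 41 probe sets of 31 genes, of which 22 were tested, and mitochondrial carriers had 24 probe sets of 20 genes, of which 21 were tested. Neither class held a probe set that differed among the groups, and 3 and 4 of them had an unadjusted p under 0.05. These classes are read against the shares over all probe sets, 1.76% called and 15.9% at an unadjusted p under 0.05. The 17 zinc probe sets had 13 tested with a median span of 0.74 log2, and the 12 sugar probe sets had 5 tested with a median span of 0.36 log2. Vesicular transmitter carriers (4 probe sets) and carriers of sulfate and other carboxylates (2) had none bright enough to test. The brightest member was Slc27a1 at 485 for the fatty acid carriers, Slc31a1, a copper importer, at 828 for copper and iron, and Slc34a2, a phosphate transporter, at 831 for phosphate. For the vitamin carriers it was Slc23a3 at 851, by a probe set whose suffix marks fewer design rules, and a second probe set of that gene averaged 140. It was Slc10a3 at 236 for the bile acid family, Slc12a4 at 261 for the cation-chloride cotransporters and Slc37a4, the glucose-6-phosphate transporter of the endoplasmic reticulum, at 444 among the remaining families.

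**Figure D2:**
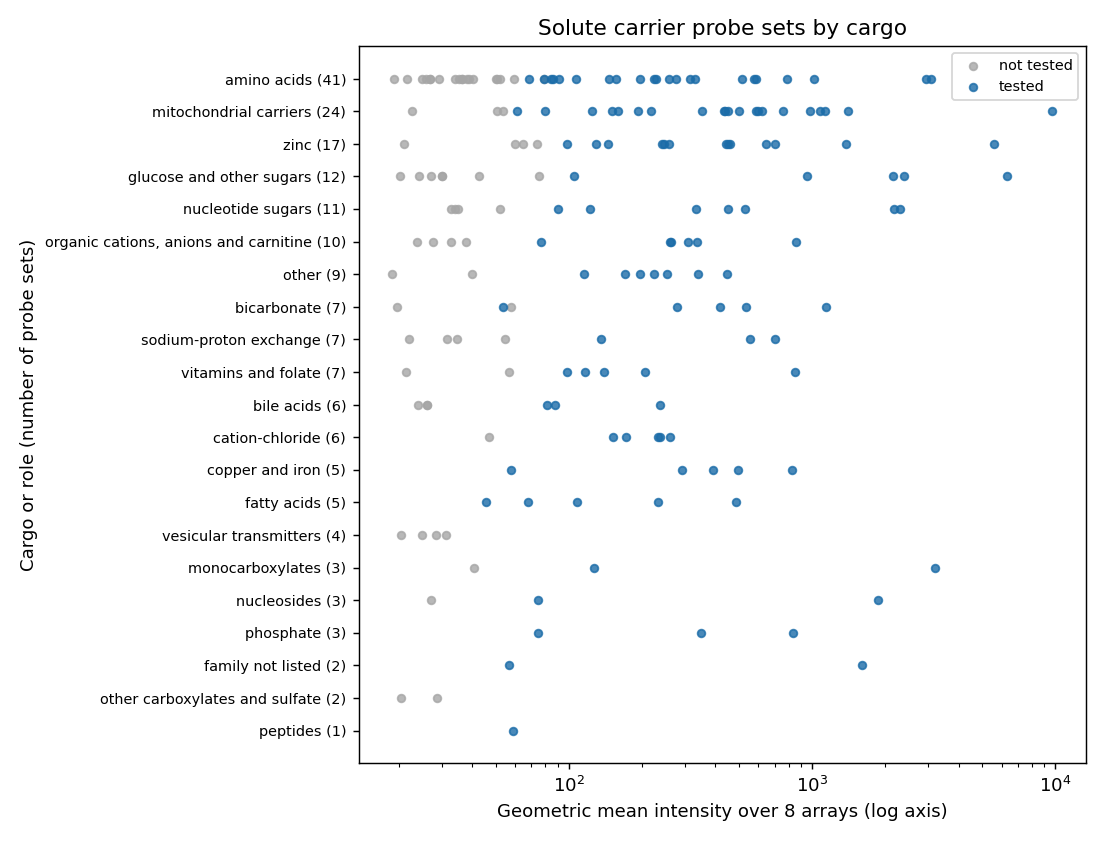
Geometric mean intensity over 8 arrays (log axis) of all 185 solute carrier probe sets, by cargo, with the number of probe sets in brackets; blue points were tested and grey points were not. The brightest point is Slc25a39 among mitochondrial carriers, and the grey points lie at 79.2 or below.

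A single solute carrier probe set of 122 tested, or 0.820%, differed among the 4 groups, at an adjusted p under 0.05 and a span of at least 1 log2, where 1.76% of all 8874 probe sets tested did. At an unadjusted p under 0.05 there were 27, or 22.1%, against 15.9% of all. The median span of the group means was 0.89 log2, or 1.85-fold, for solute carriers and 0.81 log2, or 1.75-fold, for all probe sets tested, and 45.9% against 38.7% spanned at least 1 log2. The ssp group was the lowest for 42 of the 122, or 34.4%, against 23.1% of all, and the highest for 23.8% against 28.8%. Both ssp arrays lay below the other 6 for 14 of the 122, where 5.17% of all probe sets did so, and above them for 12, where 6.42% did. For musculus the counts were 10 above (6.37% of all) and 5 below (6.67%). For domesticus they were 8 above (6.13%) and 8 below (5.47%), and for castaneus 5 above (5.74%) and 7 below (5.43%). Replicate arrays agreed within 2-fold for 77.9% of the solute carriers in ssp and for 85.2% to 86.1% in the other groups, against 77.5% in ssp and 82.8% to 84.3% in the other groups for all probe sets tested. The plot of span against brightness shows wide spans at low and at middling brightness.

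**Figure D3:**
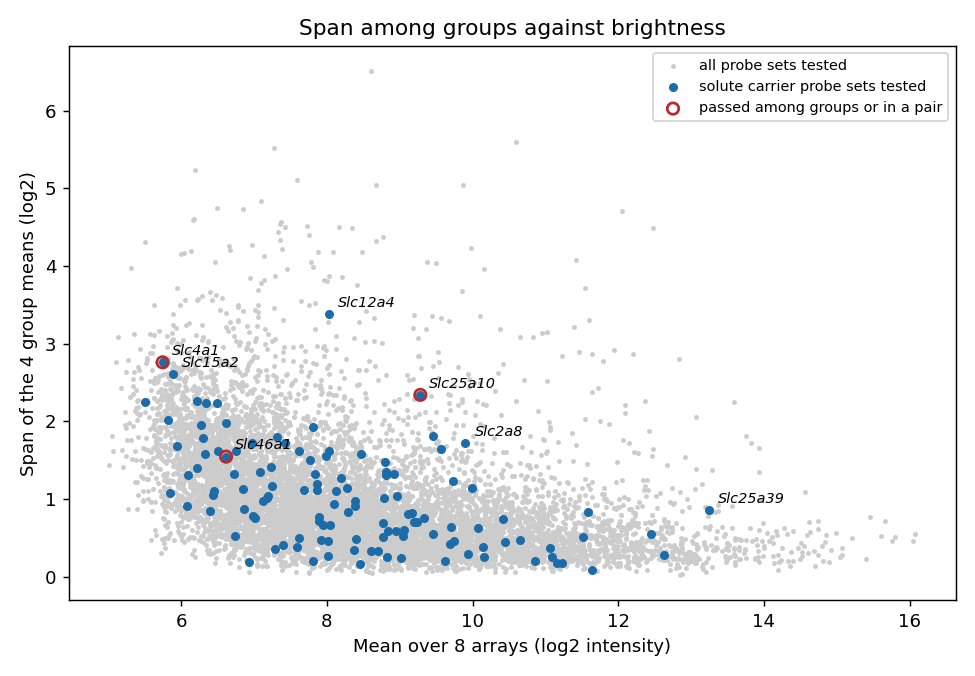
Span of the 4 group means (log2) against the mean over 8 arrays (log2 intensity) for all 8874 probe sets tested (grey) and the 122 solute carrier probe sets (blue); red rings mark the 3 that passed among groups or in a pair. Slc25a10 is the brightest of the 3, and Slc12a4 has the widest span of the solute carriers tested.

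Slc4a1, the chloride-bicarbonate exchanger of the red cell membrane, was the member called among the groups, by a probe set that entered the test through its high groups alone. It read 174.6 and 116.4 in ssp, against 112.5 and 85.1 in castaneus, 31.3 and 25.1 in musculus and 23.7 and 18.4 in domesticus. The ssp and castaneus arrays were all at least 85.1 and the musculus and domesticus arrays at most 31.3, and both ssp arrays lay above the other 6 (limma, adjusted p = 0.0324). It rose 6.77-fold in ssp over domesticus (log2 difference 2.76, SE 0.32, adjusted p = 0.0295) and 5.09-fold in ssp over musculus (log2 difference 2.35, SE 0.32, adjusted p = 0.0411). The probe set was dim throughout and reached the test level on 2 of 8 arrays, 1 in ssp and 1 in castaneus. With no filter the call was lost (adjusted p = 0.0627), as it was with any 1 array left out (0.0631 to 0.121). One of the domesticus arrays was at the floor of 18.7, and the log2 difference of ssp over domesticus was 1.92 with the floor at the 20th percentile and 2.10 with 16 added in its place.

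Other red cell transcripts had another order of groups than Slc4a1, and none of them was called among groups. Hba-a1, an alpha globin, read 13328 and 16971 in musculus, against 4975 and 1448 in ssp, 4899 and 1768 in castaneus and 2923 and 1364 in domesticus (limma, adjusted p = 0.244). Alas2, the first enzyme of haem synthesis in red cells, read 641.7 and 711.8 in musculus, against 418.8 and 184.3 in ssp, 494.3 and 169.3 in castaneus and 224.3 and 194 in domesticus (limma, adjusted p = 0.428). Of the 4 red cell markers listed, 3 were on the array, Slc4a1 among them, and their summed intensity was 14001 to 17707 in musculus and 1577 to 5568 on the other 6 arrays. Hba-a1 made up 13328 and 16971 of the musculus sums, so the sum mostly repeats the globin. Musculus had the highest group mean for the globin and for Alas2 and was among the 2 dimmest groups for Slc4a1. The part of blood in the Slc4a1 result was not tested.

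Between pairs of groups, Slc25a10 passed in castaneus with musculus. It encodes the mitochondrial carrier that exchanges dicarboxylates such as malate and succinate for phosphate. It read 1278 and 871 in musculus, against 1038 and 769 in domesticus, 804 and 729 in ssp and 248 and 175 in castaneus. Both castaneus arrays lay below the other 6, domesticus overlapped both musculus and ssp, and the musculus arrays lay above the ssp arrays. Slc25a10 was 5.06-fold higher in musculus than in castaneus (log2 difference 2.34, SE 0.33, limma adjusted p = 0.0449), and its test among the 4 groups fell short of the threshold (adjusted p = 0.0548). It reached the test level on all 8 arrays. Its call in this pair was lost with no filter and with any 1 array left out. It was the 1 member among the 122 that passed in this pair, where 0.947% of all probe sets did.

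Slc46a1, the proton-coupled folate transporter, passed in musculus with ssp. It read 182.2 and 155.4 in musculus, against 114.6 and 104.8 in domesticus, 83.2 and 90.5 in castaneus and 57.9 and 57.4 in ssp. The 4 groups did not overlap at all. Slc46a1 was 2.92-fold higher in musculus than in ssp (log2 difference 1.55, SE 0.23, limma adjusted p = 0.0478), with an adjusted p of 0.0841 among the 4 groups. It reached the test level on 3 of 8 arrays, the musculus arrays and 1 in domesticus, and on no ssp or castaneus array. The musculus arrays alone met the filter, so it entered the test through its high group. Its call in this pair was lost with no filter, with median centring, with 16 added in place of the floor, with a trended and robust variance, with the replicate number as a block and with any 1 array left out. With Slc4a1 it made 2 members in this pair, where 0.98% of all probe sets passed. The 1 member in domesticus with ssp was Slc4a1, against 0.687% of all.

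Limma called 0 members in the other 3 pairs. In castaneus with domesticus 0.676% of all probe sets passed, and 13 of the 122 members had an unadjusted p under 0.05, where 11% of all did. In castaneus with ssp 0.349% passed, and 19 members had an unadjusted p under 0.05, where 10.8% of all did. In domesticus with musculus 0.744% passed, and 12 members had one, where 12.2% of all did. In the pairs with calls that count was 19 in castaneus with musculus (13.5% of all), 24 in domesticus with ssp (12.4%) and 25 in musculus with ssp (13.3%). The summed intensity of 6 of 7 listed markers of Leydig cells, which make testosterone, was 13139 to 14040 in musculus and 2873 to 5256 on the other 6 arrays. The ssp sums were the lowest, at 2873 to 3235. One probe set of Cyp17a1, a steroid hormone enzyme, made up 8656 and 9709 of the musculus sums. Of the 9 Leydig probe sets, 1 of Cyp17a1 and 1 of Star, the cholesterol carrier protein of steroid synthesis, differed among groups, where 1.76% of all did. These, Cyp11a1, the other Star probe set and both of Hsd3b1 had their highest group mean in musculus. Others had their highest group mean elsewhere, among them Hsd3b6, a steroid enzyme, in domesticus and Insl3, a Leydig cell hormone, in ssp, and the second Cyp17a1 probe set had its lowest in musculus. The summed macrophage markers were 2337 to 3143 in musculus and 1377 to 2125 on the other 6 arrays. Limma called 0 of their 7 tested probe sets, and 3 had an unadjusted p under 0.05, where 15.9% of all probe sets did. The part of these cells in the musculus values of Slc25a10 and Slc46a1 was not tested.

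**Figure D4:**
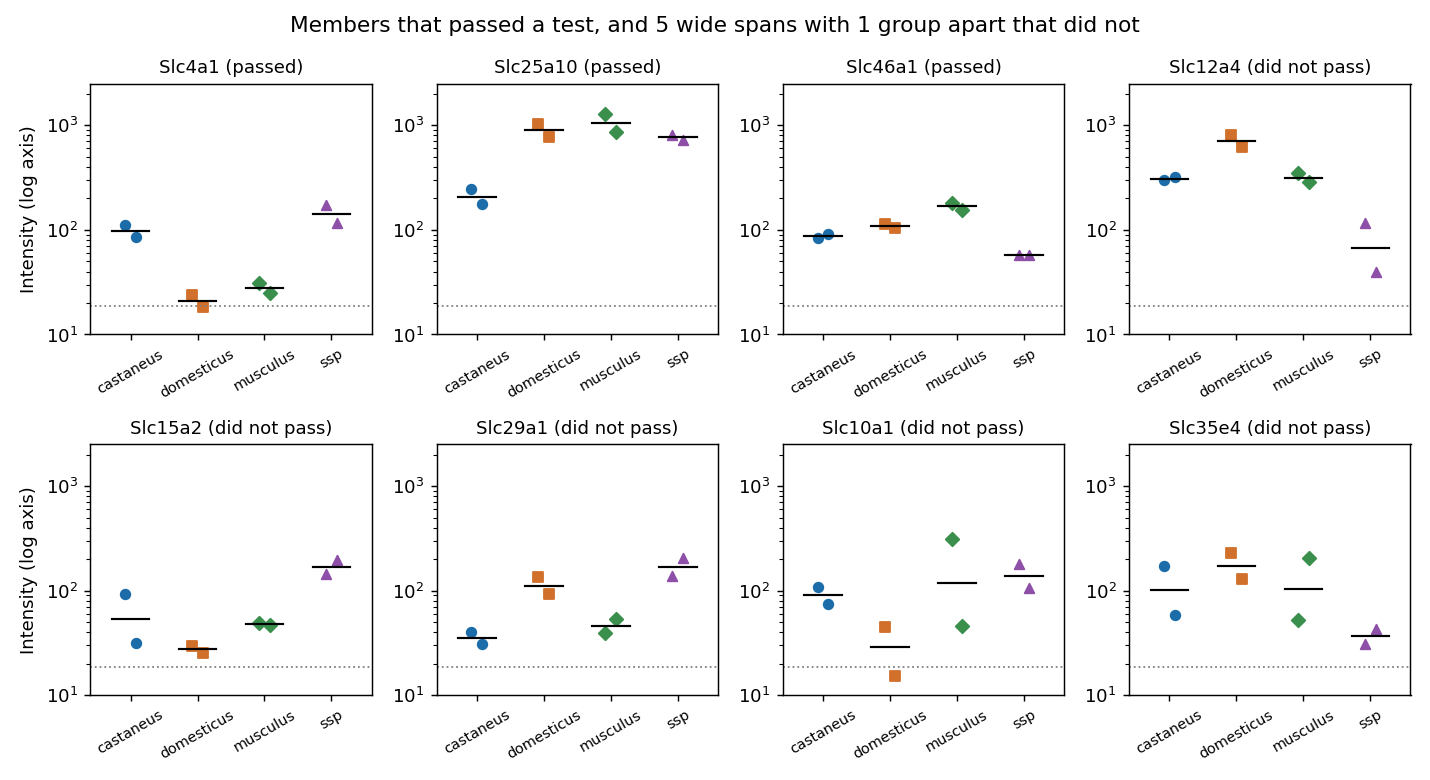
Deposited intensity (log axis) on each array of the 3 members that passed a test and of the 5 widest spans, among those whose highest or lowest group lay beyond the other 6 arrays, that did not; black bars are geometric means of 2 arrays with dimmer values raised to the floor, which is the dotted line at 18.7. The Slc29a1 panel shows its dimmer probe set, and the castaneus points of Slc25a10 lie below all others.

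Slc12a4, a potassium-chloride cotransporter that regulates cell volume, had the widest span of the tested members without passing. It read 798.9 and 619.5 in domesticus, against 348.4 and 285.5 in musculus, 297.2 and 317.5 in castaneus and 116.4 and 39.3 in ssp. Both domesticus arrays lay above and both ssp arrays below all others, and the 2 ssp arrays differed from each other by more than castaneus from musculus. The 10.4-fold span between domesticus and ssp had a log2 SE of 0.51 and an adjusted p of 0.0604 for the pair, and of 0.0841 among groups. Without ssp replicate 1, which leaves the dimmer ssp array, it passed among groups (adjusted p = 0.0485), in a fit where the lone ssp array is assumed to vary like the other groups. Slc12a7, another potassium-chloride cotransporter, read 357.8 and 316.7 in musculus, against 99.6 and 105.4 in ssp, with castaneus at 250.9 and 52.3 (adjusted p = 0.444).

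Other members with wide spans were named only if both arrays of their highest or lowest group lay beyond the other 6. Slc15a2, a peptide transporter of kidney and brain, read 143.2 and 196.9 in ssp, against 25.6 to 93.3 elsewhere (adjusted p = 0.162). It reached the test level on 2 arrays, both in ssp, so it entered the test through its high group alone. Slc22a2, an organic cation transporter, read 146.3 and 166.1 in musculus, against 29.6 to 99.6 elsewhere (adjusted p = 0.135). The Slc22a2 probe set reached the test level on 3 arrays, the musculus arrays and 1 in domesticus. Slc6a20b, of the amino acid and neurotransmitter family, read 377.1 and 432.1 in ssp, against 57.9 to 275.2 elsewhere (adjusted p = 0.323). In each of these 3 both arrays of the group lay above the other 6, a separation that was part of how they were chosen.

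The dimmer probe set of Slc29a1 had an adjusted p of 0.0671 and was highest in ssp, at 137.6 and 204.3, while the brighter one read 2234 and 1725 in domesticus and 2017 and 1453 in ssp (adjusted p = 0.956). The dimmer one has a suffix that marks fewer design rules and averaged 74.2 over the 8 arrays, against 1859 for the brighter. It reached the test level on 3 arrays, those of ssp and 1 in domesticus. Slc10a1, the bile acid importer of liver, Slc35e4 and Slc30a5, a zinc transporter, had spans of 2.24, 2.23 and 1.97 log2. Their unadjusted p was 0.126 to 0.16, and in each of them the 2 arrays of at least 1 group differed by over 1 log2.

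Slc9a3r1, the scaffold protein, was the brightest of the 10 members with wide spans that did not pass. It read 1475 and 1542 in domesticus, against 661.5 and 637.3 in castaneus, 444.2 and 777.7 in musculus and 411.1 and 451.0 in ssp. Both domesticus arrays lay above the other 6, with a 3.50-fold span and an adjusted p of 0.120. Slc25a25, a mitochondrial carrier of ATP-magnesium and phosphate, was singled out after its values were seen, because it passed among groups under 2 alternatives. It read 1203 and 1008 in castaneus, against 1043 and 958 in domesticus, 881 and 814 in ssp and 305 and 408 in musculus. Both musculus arrays lay below the other 6 (adjusted p = 0.0779).

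Of 31 transporters listed as needed by or typical of sperm cells and their support cells, 20 were on the array and 18 had a tested probe set. None of their 21 tested probe sets was called among groups by limma, where 1.76% of all were, and their median span was 0.52 log2, beside 0.81 for all probe sets tested. Unadjusted p was under 0.05 for 4 of the 21, where 15.9% of all had such a p: for Slc2a8 and for Slc12a2, the sodium-potassium-chloride cotransporter needed for sperm formation in mice, at 291 and 359 in castaneus, against 135 and 148 in ssp. It was also under 0.05 for Slc39a8, a zinc and manganese importer, at 646 and 692 in domesticus, against 323 and 340 in musculus, and for 1 of 2 probe sets of Slc11a2, the iron importer.

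Of 41 listed partners and relatives of solute carriers whose symbol is not Slc and a digit, 21 were on the array and 18 were tested. Limma called 0 of their 20 tested probe sets, where 1.76% of all were called. Unadjusted p was under 0.05 for 2 of the 20, where 15.9% of all had such a p. Bsg, the chaperone that brings lactate transporters to the cell surface, read 8708 and 8766 in domesticus and 6721 and 7656 in castaneus, with 7238 to 9889 in the other groups. Atp1b3, a beta subunit of the sodium pump that drives many carriers, read 9633 to 16169 over the 8 arrays. Aqp7, the water and glycerol channel of spermatids, read 4988 to 9148. Ldhc, the sperm-cell lactate dehydrogenase, read 29093 to 44573. Aqp9, a glycerol and water channel, read 747 and 911 in musculus, against 832 and 753 in domesticus, 334 and 326 in castaneus and 431 and 266 in ssp (adjusted p = 0.124). The musculus and domesticus arrays of Aqp9 were all brighter than the castaneus and ssp arrays, as were those of Slc2a8, and neither gene passed. How often probe sets over the whole array split the groups in this way was not counted, so nothing is read from the match.

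Of the 29 genes with more than 1 probe set, 10 had at least 2 tested, and in 3 of these, Slc11a2, Slc25a1 and Slc31a1, the tested probe sets had the same highest group. Both probe sets of Slc25a1, the citrate carrier, had their highest mean in musculus: the brighter read 2065 and 1396 in musculus, against 1064 to 1456 elsewhere, and the dimmer read 902 and 580 in musculus, against 348 to 667 elsewhere (adjusted p = 0.783 and 0.229). Musculus overlapped other groups in both. The 3 members that passed a test, Slc4a1, Slc25a10 and Slc46a1, were each measured by a single probe set.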

How the data were processed

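Testis RNA was measured on 8 Affymetrix arrays, 2 labelled technical replicates in each of 4 groups. The deposited values are linear intensities per probe set. How the authors summarised and scaled the probes: not given in the sources used here. Without the top and bottom 2% of values, each array averaged 495.65 to 496.68, so no further scaling was applied.

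Intensities below the 10th percentile of all values, 18.7, were raised to it, and log2 was taken. The filter (40th percentile of the array, on 2 or more of 8 arrays) left 8874 probe sets. Limma 3.58.1 in R 4.3.3 was fitted with 1 mean per group over all arrays, with 4 residual and 2.34 prior degrees of freedom. Adjusted p-values are Benjamini-Hochberg over all probe sets tested, within each comparison. A call needed an adjusted p under 0.05 and 1 log2 of difference. The fit was tested on simulated data.

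Symbols came from the platform annotation; all 185 members matched the RefSeq table of GRCm38.p6, whose promoter sequences are printed. Of all probe sets 10833 had 1 symbol, 396 several and 1193 none. The members and lists were chosen with earlier results of these data known. Named are the 20 brightest genes, every call, the 10 widest of the other tested spans with both arrays of the highest or lowest group beyond the other 6, the other probe sets of called genes and the brightest gene of each cargo class. Alternatives changed the scaling, filter, floor, variance model, replicate number and arrays.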

Additional observations from a re-analysis of the deposited data

How the results depend on the processing

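The directions of the differences of Slc4a1, Slc25a10 and Slc46a1 held in all 46 values recomputed under the alternatives, while the calls did not all hold. These values are not 46 separate checks. Filter, variance model, replicate block and leaving out an array outside the pair cannot change a difference of 2 group means. The Slc4a1 difference of ssp over domesticus, for example, stayed at 2.76 log2 with no filter and with the block. The members were also picked for these differences. The arrays of each compared pair did not overlap, so leaving out 1 array could not reverse a direction. The count of solute carrier probe sets that differed among the groups, 1, became 2 with median centring or with 16 added in place of the floor, 3 with the floor at the 20th percentile, 4 with the filter at the 60th percentile, 5 with a trended and robust variance and 0 with no filter. The count over all probe sets, 156, moved as well: 152 with median centring, 178 with 16 added, 215 with that floor, 309 with that filter, 383 with the trended variance and 31 with no filter. Over these fits and those without 1 array, 7 different genes were called: Slc4a1, Slc25a10, Slc12a4, Slc25a25, Slc9a3r1, Slc2a8 and Slc25a14. With the reported fit counted, Slc4a1 was called in 6 fits, Slc25a10 in 5 and Slc12a4 in 3. At the 60th percentile Slc4a1 and Slc46a1 were too dim to be tested. The trended variance gave Slc4a1 an adjusted p of 0.169 and Slc25a10 one of 0.00374. Leaving out 1 array gave 0 to 1 calls (7 to 43 over all probe sets), and the 1, without ssp replicate 1, was Slc12a4, not Slc4a1.

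By pair, the filter at the 60th percentile gave 1 call in castaneus with domesticus, castaneus with ssp, domesticus with musculus and musculus with ssp, and 2 in castaneus with musculus and domesticus with ssp. No filter gave 0 in the 3 pairs that had calls. The floor at the 20th percentile gave 1 in castaneus with domesticus 2 in castaneus with musculus and in domesticus with ssp, and 3 in musculus with ssp. Adding 16 gave 2 in castaneus with musculus and in domesticus with ssp and 1 in musculus with ssp. Median centring gave 2 in domesticus with ssp and 1 in musculus with ssp. The trended variance gave 1 in castaneus with domesticus and with ssp, 2 in castaneus with musculus, and 3 in domesticus with musculus, domesticus with ssp and musculus with ssp. With the 4 arrays of a pair alone in the fit, limma called 0 of all probe sets in each pair, so 0 members there say nothing of the solute carriers, and with 1 array left out it called 0 to 1 members. The cause of these changes was not tested, beyond the smaller number of arrays or probe sets in some fits.

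The replicate numbers come from the labels, which do not say what same-numbered arrays had in common. The correlation of same-numbered deviations was 0.026 to 0.171 over the 6 pairs of groups, positive in each and under 0.1 in 2. Whether same-numbered arrays shared a processing step was not tested. With the replicate number as a block, 1 member differed among groups, 2 in castaneus with musculus and 1 in musculus with ssp. In the last pair Slc4a1 was called and Slc46a1 was not. Over all probe sets 42 differed among groups with the block, against 156 in the reported fit. Slc46a1 was called in its pair under quantile normalization and the floor at the 20th percentile, and under no other alternative. Of the 20 brightest genes, 18 remained when ranked by their lowest group mean.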
